A study of Mus musculus with 6 samples.

Results

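Ribosome biogenesis and nucleolar genes were followed in mouse intestinal crypts after activation of YAP. The set holds Myc and 39 genes for building ribosomes, chosen by symbol. For each gene the probe set with the highest mean signal over the 6 arrays was taken, among probe sets annotated with exactly 1 symbol. Of the 40 genes, 39 were measured, out of 19938 genes in all, and Noc2l was not analysed here. RNA came from uncultured intestinal crypts, pits of the gut lining in which stem cells and their dividing progeny sit, of 3 control mice and 3 YAP transgenic mice (YAP Tg). Each mouse gave 1 Affymetrix array. By the series title the transgenic line joins YAP-S127A, a form of the coactivator YAP without an inhibitory serine, with Villin-rtTA, which places the doxycycline-responsive activator in the gut epithelium. Doxycycline treatment lasted 2 days, and the labels call the other mice only "Control", so the alleles they carried, their drug treatment, and the strain, sex and age of all mice are not given in the labels. Whether the drug or the activator by itself adds to a difference cannot be told apart here from the YAP transgene. RNA of the whole preparation was measured, while Villin drives the activator in epithelium.

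Ribosomes are assembled in the nucleolus. RNA polymerase I copies the ribosomal DNA into a long precursor RNA, small nucleolar ribonucleoproteins (snoRNPs) modify it, and large assemblies cut and fold it into the small and the large subunit. Myc is a transcription factor that binds the DNA sequence called the E-box together with Max, and many ribosome biogenesis genes are known Myc targets. In the crypt Myc is a known target of Wnt signalling, and dividing progenitors make ribosomes at a high rate.

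Since these genes are known as Myc targets, their promoters were read for the E-box, CACGTG, which is the same on both strands. RefSeq promoter sequences of the mouse build GRCm38.p6, from 250 bases before to 50 bases after the start site, were found for 34 of the 40 genes. The E-box was present in 8 of the 34, or 23.5%, against 8.09% of all 27025 genes with a promoter of this length and 9.50% of those also tested on the arrays. The share was not particular to the members. Among lists taken up below it was 20.7% for other small subunit factors, 20.6% for other large subunit factors and 30.8% for RNA polymerase III. It was 38.5% for Myc partners and 47.6% for Myc targets outside the nucleolus, but 16.7% for other RNA polymerase I genes, 9.09% for the exosome and 6.25% for the cell cycle. The stretches around these E-boxes are shown because they mark which members carry the letters that Myc and Max bind, with the E-box in capitals and up to 12 bases on either side, 5′ to 3′ on the strand of the gene.
Imp4, chr1:34439696-34439725 on the plus strand: acggtcttagacCACGTGacatcccaaatc
Nop2, chr6:125131811-125131840 on the plus strand: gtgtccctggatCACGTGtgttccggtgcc
Utp18, chr11:93885769-93885798 on the minus strand: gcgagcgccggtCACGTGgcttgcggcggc
Pes1, chr11:3963965-3963994 on the plus strand: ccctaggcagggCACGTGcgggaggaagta
Wdr43, chr17:71616220-71616249 on the plus strand: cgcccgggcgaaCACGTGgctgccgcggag
Tsr1, chr11:74898092-74898121 on the plus strand: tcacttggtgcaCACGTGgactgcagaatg
Utp20, chr10:88826765-88826789 on the minus strand: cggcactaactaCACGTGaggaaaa
Mybbp1a, chr11:72441355-72441376 on the plus strand: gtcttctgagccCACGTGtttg

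The E-box began 121 bases before the start site in Imp4, 60 in Nop2 and 20 in Utp18. It began at base 3 of the transcript in Pes1, base 18 in Wdr43, base 25 in Tsr1, base 38 in Utp20 and base 41 in Mybbp1a. TEAD proteins, through which YAP reaches DNA, bind a core written GGAATG. On either strand that core was present in 1 of the 34 promoters, 2.94%, against 16.6% of all genes with a promoter. The member with this core was Polr1b, where it begins at base 31 of the transcript and reads on the opposite strand (capitals).
Polr1b, chr2:129101014-129101043 on the plus strand: ggttggtccggcCATTCCagccagccacga
A match is a description of these letters and does not show binding.

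The median log2 signal of the genes was nearly the same on every array, between 6.74 and 6.79. Signals on YAP Tg 1 and YAP Tg 3 were spread less widely, with upper quartiles of 8.45 and 8.49 against 8.60 to 8.69 on the controls and 8.66 on YAP Tg 2. The members gave strong signals, with means over the 6 arrays from 7.02 to 10.56, where presumed array control probe sets had a median of 5.07. By array that median was 4.97 to 4.99 on the controls and 5.33, 5.15 and 5.03 on YAP Tg 1, 2 and 3. As a check of the transgenic label, the YAP target Ccn1 stood at 10.80, 10.61 and 10.60 on YAP Tg 1, 2 and 3 and at 6.16 to 6.22 on the controls. For Ccn1, mouse 2 stood close to mice 1 and 3. The signal of Yap1 itself was not higher in transgenic mice. It stood at 8.98, 9.27 and 9.25 on YAP Tg 1, 2 and 3 and at 9.43, 9.48 and 9.30 on control arrays 1 to 3, so that all transgenic values lay below all controls (change -0.24, SE 0.10, limma's adjusted p = 0.184). Whether the Yap1 probe set reads the transgene's RNA is not given in the labels, so the check of the label rests on Ccn1 and Ccn2. The 11 markers of crypt and gut epithelium had a mean log2 signal of 11.43 to 11.54 in control and 10.99 to 11.30 in transgenic mice. The crypt stem cell markers Olfm4, Lgr5 and Ascl2 fell in all 3 transgenic mice, with log2 changes of -3.19, -1.76 and -1.83 (limma's adjusted p = 0.0116, 0.013 and 0.00299), and 4 keratin and junction genes, Krt8, Krt18, Cdh1 and Cldn7, rose. With any 1 array left out, 1 to 3 of the 11 were lower and 1 to 6 higher. Among all genes, with all arrays, 6.7% were lower and 7.5% higher.

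Ribosome biogenesis genes were low in 2 of the 3 transgenic mice and at or slightly above the control level in the other. Among the 38 members other than Myc, the median signal was 44.3% of the control mean in YAP Tg 1, 56.1% in YAP Tg 3 and 106% in YAP Tg 2. All 39 members lay below all 3 controls on YAP Tg 1 and on YAP Tg 3, where 35.5% and 31.9% of all tested genes did so and 40.7% and 45.3% lay above all controls. The members all belong to the 9969 genes above the median signal. Of those genes 54.0% and 51.1% lay below all controls on YAP Tg 1 and YAP Tg 3, and 35.1% lay above on each. On YAP Tg 2 just 6 members lay below all controls, 10 lay within their range and 23 lay above them, against 33.7% of all genes below and 28.3% above. Among genes above the median signal these shares were 38.6% and 37.3%. In 35 of the 39 members the transgenic mice stood in the same order, mouse 1 lowest, then mouse 3, then mouse 2. That order was seen in 20.4% of all genes and in 34.5% of genes above the median signal. The 4 other members, Polr1e, Nop14, Wdr12 and Wdr74, were lower in mouse 3 than in mouse 1.

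**Figure D1:**
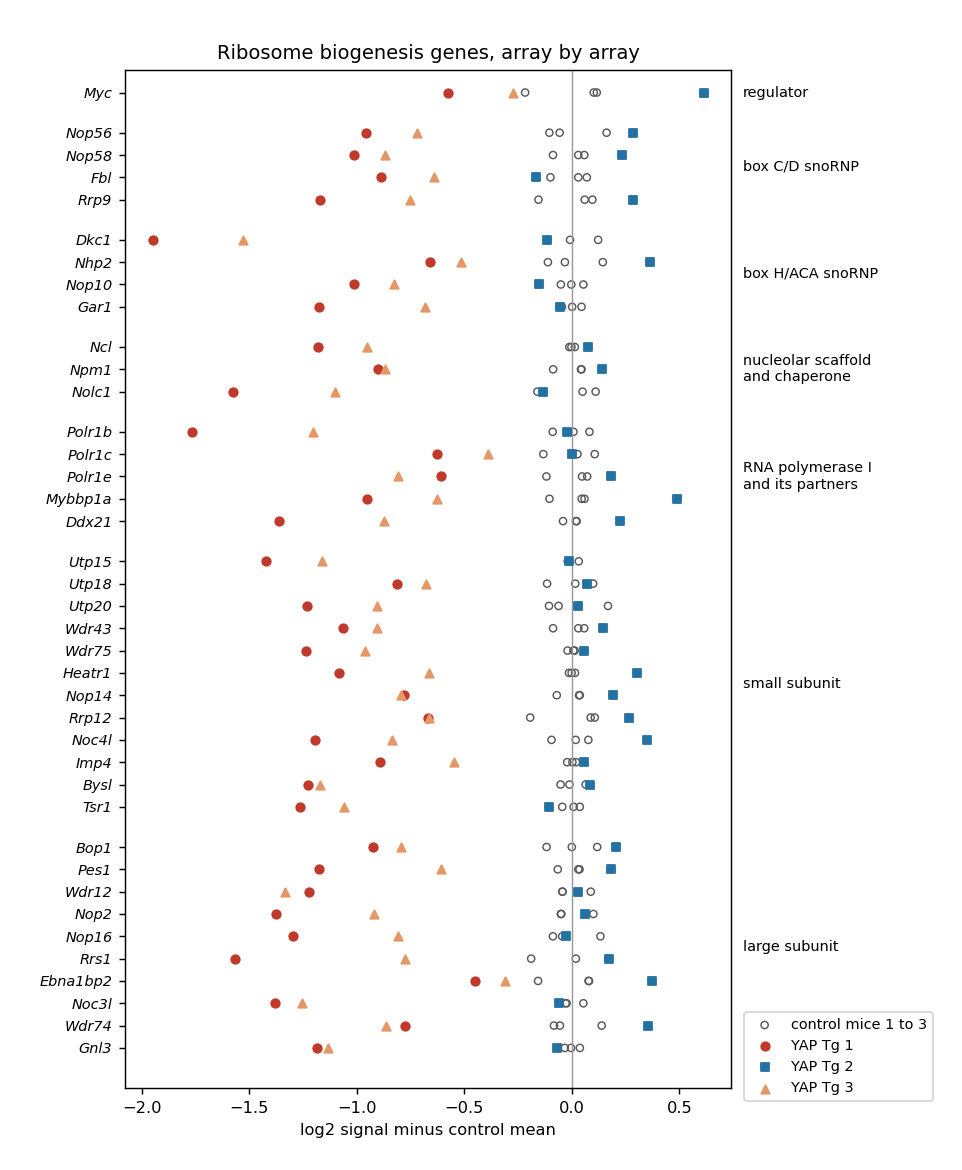
The log2 signal of each of the 39 genes on each array, as the difference from the mean of the 3 controls (horizontal axis, log2), with genes in rows grouped by role; open circles are control mice and filled symbols transgenic mice. YAP Tg 1 and YAP Tg 3 lie to the left of all controls in every row, while YAP Tg 2 lies among or to the right of the controls in most rows.

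With all 6 arrays 0 of the 39 members were called higher or lower (limma, adjusted p under 0.05), while 6.7% of all genes were lower and 7.5% higher. At an unadjusted p under 0.05 by limma, 8 of the 39 were lower and 0 higher, and 16.2% of all genes were lower. The log2 change, transgenic minus control, was negative for all 39, from -1.20 to -0.08 with a median of -0.57, beside a median of 0.03 over all genes. Limma's adjusted p ran from 0.101 to 0.883. All 3 transgenic values lay below all 3 control values for 6 of the 39 members, Fbl, Nop10, Gar1, Tsr1, Noc3l and Gnl3, where 17% of all genes did so. Among the 9969 genes above the median signal 2876 did so, so the members separated no more often than genes in general. The reverse held for 0 members, 16.5% of all genes and 2188 of the genes above the median signal.

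The result turned on YAP Tg 2. Each array was left out in turn, and without YAP Tg 2, 38 of the 39 members were lower by limma's test and none higher, against 19.5% and 14.1% of all genes. The member not called there was Myc (limma's adjusted p = 0.0809). For the 38 others the change was then -1.74 to -0.38, and limma's adjusted p was 0.0011 to 0.0410. Without any other single array 0 members were called. With limma's array weights, which gave YAP Tg 2 the lowest weight of the 6 arrays, 31 members were lower and 0 higher (17.5% and 12.3% of all genes). When only genes above the median signal were tested without YAP Tg 2, 37.3% of them were lower and 20.8% higher. Of the members 38 were then lower and 0 higher. With quantile normalization and without that mouse 36 were lower and 0 higher (17% and 16% of genes). In a bulk sample, fewer cells of a type and less RNA per cell cannot be told apart.

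**Figure D2:**
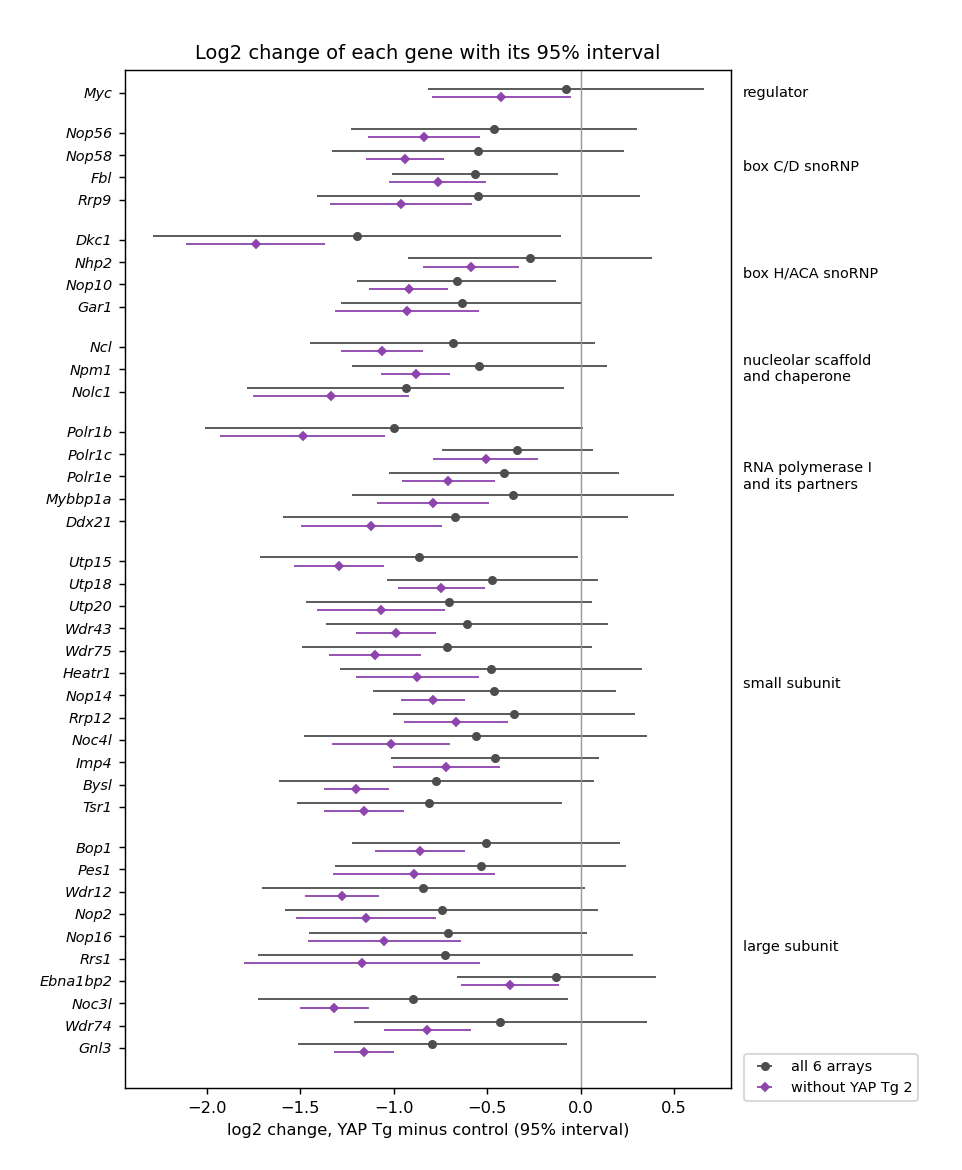
Log2 change of each gene, transgenic minus control (horizontal axis), with its 95% interval from limma; grey circles use all 6 arrays and purple diamonds leave out YAP Tg 2. The intervals are wide with all arrays. Without YAP Tg 2 those of Myc and the 38 other members are narrower and lie wholly below 0. The interval of Myc is then -0.80 to -0.05, and the intervals are not adjusted for the number of genes tested.

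The spread within the transgenic group was larger than within the controls for all 39 members. The median SD over members was 0.09 in control and 0.66 in transgenic mice on the log2 scale. Over all genes it was 0.08 and 0.16, and the transgenic SD was the larger in 75.1% of them. Among genes above the median signal it was 0.09 and 0.22, and the transgenic SD was the larger in 82.0%. The wide spread was not particular to the members. Among lists taken up below, the median transgenic SD was 0.72 for the cell cycle, 0.54 for the exosome and 0.52 for Myc targets outside the nucleolus. It was 0.53 for other small and 0.48 for other large subunit factors, 0.26 for other RNA polymerase I genes and 0.10 for Myc partners.

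Myc, the regulator, did not differ between the groups beyond its spread. Its log2 signal was 9.91, 9.93 and 9.59 on control arrays 1 to 3 and 9.23, 10.42 and 9.54 on YAP Tg 1 to 3. The transgenic mice lay on both sides of the controls, with mouse 2 the highest and mouse 1 the lowest of all 6. The group means were 9.81 ± 0.19 (SD, n = 3) in control and 9.73 ± 0.62 in transgenic mice, a log2 change of -0.08 with a 95% interval of -0.82 to 0.66 (limma's adjusted p = 0.883). The sign of that change turned without YAP Tg 1 (0.17), without YAP Tg 3 (0.02) and under quantile normalization (0.01).

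Beside the other members, Myc kept the order of the transgenic mice and differed in size. Its difference from the control mean was -0.58, 0.61 and -0.27 in mice 1, 2 and 3, where the medians of the 38 others were -1.17, 0.08 and -0.83. Among the controls Myc was lowest in mouse 3. The other members did not follow there. Mouse 3 was the highest control for 24 of the 38 and the lowest for 1. Among all 19938 genes it was the highest for 33.8% and the lowest for 6465. Among the 9969 genes above the median signal it was the highest for 22.2% and the lowest for 4666, so the low value of Myc there was common.

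**Figure D3:**
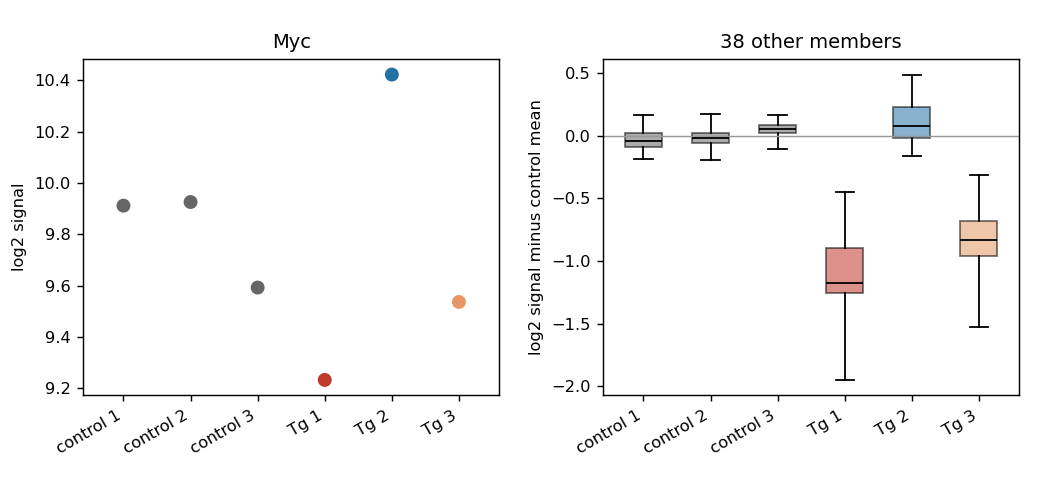
Left, the log2 signal of Myc on each array; right, the 38 other members on each array as the difference from the control mean (log2), with boxes for the quartiles, a line for the median and whiskers for the full range. Both panels have YAP Tg 1 and YAP Tg 3 below YAP Tg 2, and control 3 is the lowest control for Myc but not for the others.

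The box C/D snoRNP, which methylates ribosomal RNA, was represented by its core proteins Nop56 and Nop58, the methyltransferase fibrillarin (Fbl) and Rrp9, a protein of the U3 particle. Fbl had the smallest p of the whole set. It stood at 9.90, 10.06 and 10.02 in control and at 9.11, 9.83 and 9.35 in transgenic mice. The groups did not overlap, since even mouse 2 lay just below the lowest control. Its change was -0.57 (SE 0.18, 95% interval -1.01 to -0.12, limma's adjusted p = 0.101). A further Fbl probe set, of lower signal, gave -1.04 (SE 0.34, limma's adjusted p = 0.105). Across the 4 genes the differences from the control mean were -1.17 to -0.89 in mouse 1, -0.17 to 0.28 in mouse 2 and -0.87 to -0.64 in mouse 3.

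The box H/ACA snoRNP turns uridine into pseudouridine in ribosomal RNA and consists of the enzyme dyskerin (Dkc1) with Nhp2, Nop10 and Gar1. Dkc1 had the most negative change of all members. Its signal was 9.54, 9.64 and 9.77 in control mice and 7.70, 9.54 and 8.12 in transgenic mice, so that mouse 2 matched the lowest control and the others lay far below. The change was -1.20 (SE 0.45, 95% interval -2.29 to -0.10, limma's adjusted p = 0.140), and without YAP Tg 2 it was -1.74 (SE 0.15, limma's adjusted p = 0.00167). Nop10, the smallest protein of the particle, had the smallest p in this group. It stood at 10.51, 10.56 and 10.61 against 9.55, 10.41 and 9.73, with no overlap (-0.66 on the log2 scale, SE 0.22; limma's adjusted p = 0.104). Nhp2 differed least, with a change of -0.27, and lay above all controls in mouse 2 by 0.36 over their mean.

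Of the abundant nucleolar proteins, nucleolin (Ncl) and nucleophosmin (Npm1) act as chaperones of pre-ribosomes, and Nolc1 is a chaperone of snoRNPs. Nolc1 had the smallest p and the most negative change of these. It stood at 9.36, 9.09 and 9.30 in control and 7.68, 9.12 and 8.15 in transgenic mice. Mouse 2 fell inside the control range and mice 1 and 3 below it, and the change was -0.94 (SE 0.35, limma's adjusted p = 0.138). Ncl and Npm1 had changes of -0.68 and -0.54. In mouse 2 both lay above all controls, by 0.08 and 0.14 over the control mean.

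For RNA polymerase I the set holds the subunits Polr1b, Polr1c (shared with RNA polymerase III) and Polr1e, with the nucleolar proteins Mybbp1a and Ddx21, an RNA helicase. Polr1b, which encodes the second largest subunit, stood at 9.83, 9.66 and 9.75 in control mice. In transgenic mice it was 7.98, 9.72 and 8.54, with mouse 2 in the middle of the controls. The change was -0.999 (SE 0.42, 95% interval -2.01 to 0.01, limma's adjusted p = 0.171) and, without YAP Tg 2, -1.49 (SE 0.17, limma's adjusted p = 0.00335). Polr1c had the change nearest 0 of these, -0.34. Mybbp1a had the largest positive difference in mouse 2 of all members other than Myc, 0.49 over the control mean, with -0.95 in mouse 1 and -0.63 in mouse 3.

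The small subunit is built on the processome, a large particle around the U3 snoRNA. The set holds its components Utp15, Utp18, Utp20, Wdr43, Wdr75, Heatr1, Nop14, Noc4l and Imp4, and the later factors Rrp12, Bysl and Tsr1. All 12 were lower in mice 1 and 3 than in any control. Tsr1 had the smallest p. It stood at 8.88, 8.96 and 8.93 in control and 7.66, 8.82 and 7.86 in transgenic mice. No transgenic value reached the controls, mouse 2 missing them narrowly (change -0.81, SE 0.29, limma's adjusted p = 0.128). Utp15, of the subcomplex that also links to transcription of ribosomal DNA, had the most negative change. Its signal was 8.71, 8.71 and 8.76 against 7.30, 8.71 and 7.57, which placed mouse 2 at the control level (change -0.87, SE 0.35, limma's adjusted p = 0.162). The change nearest 0 was that of Rrp12, -0.36. In mouse 2, 8 of the 12 lay above all controls, 3 within their range and 1 below.

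The large subunit was represented by the complex of Bop1, Pes1 and Wdr12, the RNA methyltransferase Nop2, the nucleolar GTPase Gnl3 (nucleostemin) and the assembly factors Nop16, Rrs1, Ebna1bp2, Noc3l and Wdr74. Gnl3 had the smallest p of these 10. It stood at 9.08, 9.11 and 9.15 in control and 7.93, 9.05 and 7.98 in transgenic mice, with no overlap but with mouse 2 only 0.07 below the control mean. Its change was -0.80 (SE 0.30, limma's adjusted p = 0.138). Noc3l had the most negative change, -0.90 (SE 0.34, limma's adjusted p = 0.143). Its values were 8.73, 8.74 and 8.81 against 7.38, 8.70 and 7.51, so mouse 2 again lay just under the controls. Ebna1bp2 had the smallest change of all members after Myc, -0.13 with a 95% interval of -0.66 to 0.40 (limma's adjusted p = 0.726), and its sign turned without YAP Tg 1 (0.03). The 2 probe sets of Wdr12 gave -0.84 and -0.74.

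For further factors of the small and the large subunit, the medians of the transgenic mice stood in the same order. Of 37 other small subunit factors measured, 1 was lower and 0 higher with all arrays, and 29 were lower without YAP Tg 2. Of 39 other large subunit factors, 0 were called with all arrays and 35 were lower without YAP Tg 2. The gene called with all arrays was Ddx49, an RNA helicase (9.41, 9.35 and 9.20 against 8.35, 9.01 and 8.53; change -0.69, limma's adjusted p = 0.0486). That call was kept only without YAP Tg 2, and with any other array left out limma's adjusted p was up to 0.176. The median difference from the control mean was -0.84, 0.01 and -0.72 in mice 1, 2 and 3 for the small subunit factors and -0.77, 0.04 and -0.74 for the large subunit factors. Beside the counts of these lists and of those below, 6.7% of all genes were lower and 7.5% higher with all arrays. Without YAP Tg 2 the shares were 19.5% and 14.1%. In that same fit, 3517 of the 9969 genes above the median signal were lower and 1915 higher.

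Of 12 other RNA polymerase I genes, 1 was lower with all arrays, Polr1g (annotated as Cd3eap; change -0.49, SE 0.11, limma's adjusted p = 0.0325), and 5 without YAP Tg 2. Its call was lost with any other array left out (limma's adjusted p up to 0.127). These 12 had smaller median differences, -0.17, 0.08 and -0.38. Of 19 genes of RNA polymerase III and its factors, which make transfer RNA and 5S ribosomal RNA, Polr3k (change -0.75) and Gtf3c6 (change -0.74) were lower with all arrays, with limma's adjusted p of 0.0317 and 0.0468. Both calls were lost with any array other than YAP Tg 2 left out, and without YAP Tg 2, 14 were lower. Of 13 genes of the nuclear RNA exosome, which trims precursor RNA, 0 were called with all arrays and 11 were lower without YAP Tg 2. Among all genes 19.5% were lower without YAP Tg 2, and 3517 of the 9969 genes above the median signal.

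Among 13 partners and antagonists of Myc the median difference was -0.06, -0.05 and -0.05 in mice 1, 2 and 3. With all arrays 1 gene was higher and 3 were lower (7.5% and 6.7% of all genes). Mxd1, a repressor that competes with Myc for Max, rose from 10.86, 11.11 and 10.85 in control to 12.55, 12.05 and 12.39 in transgenic mice. All 3 transgenic mice were above all controls, mouse 2 included, and the change was 1.39 (SE 0.15, limma's adjusted p = 0.0031). Mlxipl, a glucose-responsive factor that pairs with Mlx, fell from 9.38, 8.99 and 9.07 to 7.65, 7.85 and 8.12, again in all 3 mice (change -1.27, SE 0.16, limma's adjusted p = 0.00494). The Myc paralog Mycl fell by 0.66 (SE 0.12, limma's adjusted p = 0.0195), a call lost without any 1 control (up to 0.0913). The paralog Mycn, named after its values were seen, changed by -0.34 (limma's adjusted p = 0.0269), a call kept only without YAP Tg 2 among the single arrays left out. The calls of Mxd1 and Mlxipl were kept with any 1 array left out. Max itself stood at 10.91, 10.97 and 10.86 in control and 11.76, 11.07 and 11.31 in transgenic mice (change 0.47, limma's adjusted p = 0.135, and 0.0234 without YAP Tg 2).

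Of 25 Myc targets outside the nucleolus, 3 were lower and 1 higher with all arrays (6.7% and 7.5% of all genes). Without YAP Tg 2, 20 were lower and 1 higher (19.5% and 14.1% of all genes). The translation inhibitor Eif4ebp1 rose by 1.13 (SE 0.14, limma's adjusted p = 0.0051) and was called with any 1 array left out. The amino acid transporter chain Slc3a2 changed by -0.51 (limma's adjusted p = 0.0118) and the transferrin receptor Tfrc by -2.04 (SE 0.46, limma's adjusted p = 0.0346). The third gene that was lower, Shmt1, an enzyme of folate metabolism, was named after its values were seen (change -1.41). Slc3a2 lost its call without any 1 control (up to 0.0658). Tfrc lost its call without any 1 control or YAP Tg 3 (up to 0.135), and Shmt1 without any array other than YAP Tg 2 (up to 0.145).

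Other gene lists moved with the members across the arrays, and their part in the result was not tested. Of 19 cell cycle genes, 0 were called with all arrays and 17 were lower without YAP Tg 2, with median differences of -1.34, 0.05 and -0.91 in mice 1, 2 and 3. For 54 cytosolic ribosomal protein genes, the products assembled by this pathway, the medians were -0.46, -0.07 and -0.50, and 6 were lower with all arrays and 43 without YAP Tg 2. For 77 mitochondrial ribosomal protein genes they were -0.71, -0.09 and -0.60, with 9 lower and 61 lower. These ribosomal protein calls fell to between 0 and 2 with any array other than YAP Tg 2 left out. Among all genes above the median signal the medians were -0.16, -0.01 and -0.10. Over all genes 6.7% were lower with all arrays and 19.5% without YAP Tg 2.

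Markers of T cells and intraepithelial lymphocytes, another cell type in the crypt preparation, did not separate mouse 2 from mice 1 and 3. All 10 rose with all arrays, where 7.5% of all genes did so and 6.7% fell. Between 9 and 10 rose with any 1 array left out. The mean log2 signal of the 10 was 9.21 to 9.46 in control and 10.76, 10.67 and 10.58 in YAP Tg 1, 2 and 3. Of 8 markers of stroma and muscle 1 rose, Vim (mean log2 signal of the list 6.68 to 7.15 in control and 7.03 to 7.35 in transgenic mice), a call lost without any 1 control or YAP Tg 1. Of 8 villus enterocyte markers 2 fell, the fatty acid binding proteins Fabp1 and Fabp2 (mean log2 signal of the list 12.88 to 12.94 in control and 12.02, 11.96 and 12.53 in the transgenic mice), and the number was 1 without control 3 and 4 without YAP Tg 3.

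**Figure D4:**
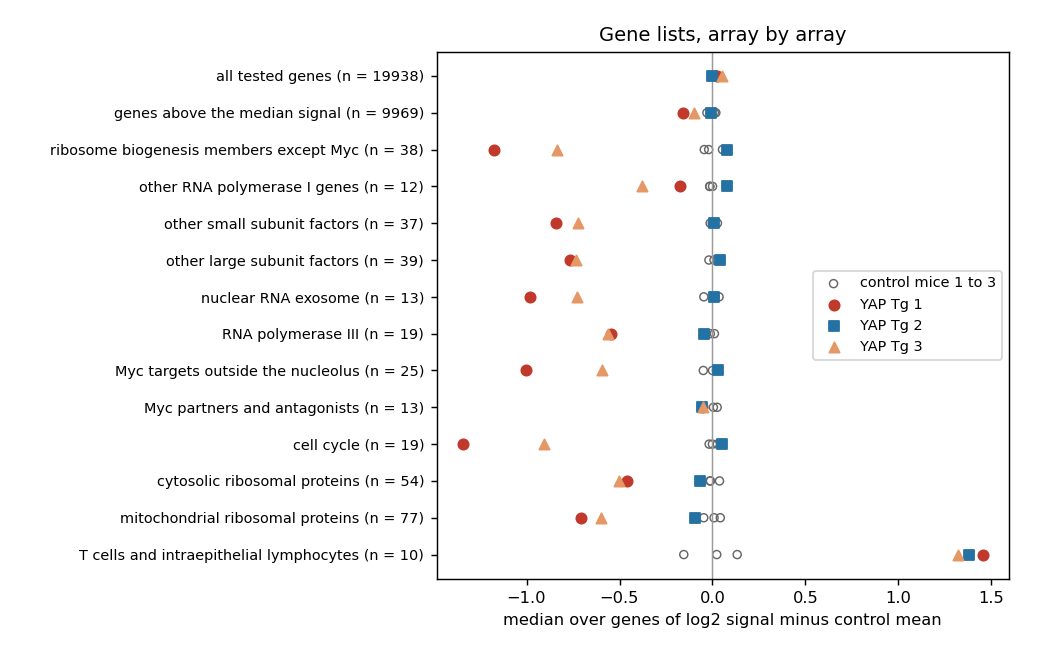
Median over the genes of each list of the difference between an array's log2 signal and the control mean (horizontal axis, log2); open circles are control mice, filled symbols transgenic mice, and n is the number of genes measured. In most lists YAP Tg 1 and YAP Tg 3 lie left of the controls and YAP Tg 2 among or near them, while for T cell markers all 3 transgenic mice lie to the right, between 1.32 and 1.45.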

How the data were processed

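The submitters' processing notes name Affymetrix Expression Console 1.1, with which the authors made the values they deposited for 35556 probe sets on 6 arrays. Their log2 unit follows from the range of the deposited values; how background, normalization and probe summary were handled is not stated there. Probe sets numbered below the first annotated one (6617) were taken to be array controls and left out. Genes were named from the 21789 probe sets with 1 symbol, with names checked in RefSeq's table of GRCm38.p6. Differences were tested over 19938 genes by the two-sided moderated test of limma (3.58.1, under R 4.3.3), group being the single term, with Benjamini-Hochberg adjustment at 0.05, and the script was tested on simulated data. Groups and numbers come from the sample titles. Nothing says more of how the mice were sampled, and p-values measure only the spread between these arrays, whose number limits the precision. Members and lists were chosen with earlier results of these data known. Full values are given, per role group, for the members with the smallest p and the largest change and, per further list, for up to 3 called genes. The alternatives left out each array, used the replicate number as a block, renormalized, filtered on signal, or changed the variance model, weights, probe set rule or threshold.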

Additional observations from a re-analysis of the deposited data

How the results depend on the processing

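No member was called higher under any alternative run. The count of members lower was 0 with all arrays and 0 under quantile normalization, median centring, either signal filter, a robust prior with trend, averaged probe sets, thresholds of 0.10 and 0.01, and without any array but YAP Tg 2. It was 38 without YAP Tg 2 (19.5% of all genes), 0 to 38 over all arrays left out in turn, and 31 with array weights (17.5% of all genes). Chosen after the data were seen, YAP Tg 2 left out together with quantile normalization gave 36 (17% of all genes). Together with the filter at the median signal it gave 38 (37.3% of the genes kept). The median log2 change of the members, -0.57, ranged from -0.94 to -0.33 over the arrays left out. The change of Myc ranged from -0.43 to 0.17 over these, was 0.02 without YAP Tg 3 and 0.0076 under quantile normalization, and was called in none; that of Ebna1bp2 ranged from -0.38 to 0.0297, the latter without YAP Tg 1. The cause of these turns was not tested. With the replicate number as a block, 0 members were called. Same-numbered arrays did not deviate together (correlations over genes of -0.13, 0.01 and 0.10), so the numbers were not taken to pair mice.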

Other observations

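The 8 members with an E-box in the promoter and the 25 measured members with a promoter but no E-box had similar values on each array. Median differences from the control mean were -1.12, 0.07 and -0.79 in YAP Tg 1, 2 and 3 with the E-box and -1.18, 0.08 and -0.87 without. The median log2 change was -0.57 with it and -0.66 without.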
